A study of Bos taurus with 10 samples.

Results

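The EGF receptor family and its ligands were examined in epithelial cells of the oviductal isthmus, the oviduct segment next to the uterus, of heifers (Bos taurus). The members were taken by name: the receptors EGFR, ERBB2, ERBB3 and ERBB4 and the ligands EGF, AREG, EREG, HBEGF, TGFA and BTC, 10 genes in all. Of these, 8 were rows of the deposited table of 24596 features under their own name. AREG was matched to a row listed by its Ensembl identifier (ENSBTAG00000018134), whose description carries the RefSeq accession of AREG, and its values are given beside the 8. EGF is not analysed here. All 9 rows exceeded the mean of 1 RPKM (reads per kilobase of gene, scaled to the total reads of the library) required for testing, which 12834 features did.

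Both groups were heifers. The cyclic group (5 libraries) had a sham transfer, and the pregnant group (5 libraries) was given 50 presumptive zygotes made in vitro, so embryo number was far above that of a natural pregnancy. Breed, age and day of collection are not given in the labels, nor is it said whether any of the libraries came from the same animal. The p-values set the difference between groups against the spread of libraries within groups. Whether that spread is one between separate heifers is therefore not known. The comparison asks whether embryos in the oviduct alter transcripts of the cells lining it.

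The receptors are tyrosine kinases that act in pairs. EGFR binds EGF, TGFA and AREG, and it shares HBEGF, EREG and BTC with ERBB4. ERBB2 has no known ligand of its own and serves as partner of the others. ERBB3 binds neuregulins but has a weak kinase, so it depends on a partner, ERBB2 above all. The ligands are made as membrane proteins and released by proteases of the ADAM family, and active receptors feed the RAS-ERK and PI3K-AKT cascades. In the mammalian reproductive tract the family is best known for growth of epithelium and for HBEGF as a signal between embryo and mother in the mouse uterus.

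Library totals recovered from the values were lowest in cyclic library 4 (9.71 M reads) and highest in pregnant library 5 (26.1 M). Epithelial markers were high in all 10 libraries: EPCAM, an adhesion molecule of epithelia, stood at 321 to 420 RPKM in cyclic and 318 to 357 RPKM in pregnant libraries. The list of 5 secretory markers also holds the general epithelial genes EPCAM, KRT8 and KRT18. The 5, OVGP1 above all, summed to 3587 to 9709 RPKM in cyclic but 1402 to 3962 RPKM in pregnant libraries. The 6 ciliated cell markers summed to 597 to 959 and 529 to 653 RPKM. No list of markers of other cells was at 0 throughout. The 7 fibroblast markers summed to 33.0 to 75.8 RPKM in cyclic and 13.7 to 34.1 RPKM in pregnant libraries, and FBLN1 alone (means 27.8 and 9.20 RPKM) made most of that gap. The 7 leukocyte markers summed to 11.1 to 21.3 and 12.03 to 20.4 RPKM. The 5 smooth muscle markers summed to 15.9 to 33.5 and 16.2 to 45.3 RPKM, the 5 endothelial markers to 6.53 to 17.8 and 6.62 to 18.1 RPKM, and the 5 oocyte and cumulus markers to 0.819 to 1.25 and 0.65 to 1.003 RPKM. The first axis of a principal component analysis held 38.1% of the variance. It put cyclic library 3 (score 10.5) nearer the pregnant libraries and pregnant library 4 (-6.47) nearer the cyclic ones. Cyclic library 4, the library of lowest total, lay farthest out (-55.7), well beyond cyclic library 5 (-25.7). In bulk RNA, fewer cells of a type and less RNA per cell cannot be told apart.

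ERBB3 and ERBB2 made up most of the receptor transcript, and both stood lower in pregnant than in cyclic heifers, at 66.6% and 55.9% of the cyclic mean. Neither passed the test across all features (adjusted p = 0.0934 for each, limma-trend), as was true of every one of the 12834 features tested. The adjusted p of 0.0934 was the smallest of all and was shared by 438 features, so it does not rank them. Unadjusted limma-trend p was 0.000856 for ERBB3 and 0.00194 for ERBB2. The ligands lay in both directions, with HBEGF lower and EREG, TGFA and AREG higher in mean, none past the threshold. At an unadjusted p under 0.05, 3 of the 8 named members were lower (ERBB2, ERBB3 and HBEGF) and 0 were higher. Over all tested features that threshold took in 27.5% (11.9% lower and 15.7% higher), while an adjusted p under 0.05 took in 0%. An adjusted p under 0.1 took in 7.93% of features, ERBB2 and ERBB3 among them. The median log2 difference of the 8 was -0.13, beside 0.01 over all tested features.

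ERBB3, the neuregulin receptor with the weak kinase, stood at 48.7, 50.4, 54.0, 70.1 and 47.6 RPKM in cyclic libraries 1 to 5. In pregnant libraries 1 to 5 it stood at 31.3, 35.8, 36.5, 41.2 and 35.6 RPKM. The groups did not overlap: the lowest cyclic library (5) lay above the highest pregnant library (4). Such a separation with lower values in pregnant heifers was seen for 2.05% of all tested features (6.96% in either direction). The means were 54.2 ± 9.23 and 36.1 ± 3.54 RPKM (SD, n = 5 each). The log2 difference, pregnant minus cyclic on the log2(RPKM + 1) scale, was -0.56 (SE 0.13, 95% interval -0.84 to -0.29, limma adjusted p = 0.0934). Between 2932 and 5383 reads per library lay behind these values.

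ERBB2, the partner receptor without a ligand, stood at 32.6, 35.96, 25.05, 53.0 and 41.5 RPKM in cyclic libraries 1 to 5. The pregnant libraries held 17.4, 17.6, 18.8, 29.1 and 22.1 RPKM. The groups overlapped only through cyclic library 3, the lowest of its group, and pregnant library 4, the highest of its group, so that the cyclic library was the higher in 24 of 25 pairs. The means were 37.6 ± 10.44 and 21.0 ± 4.92 RPKM (SD, n = 5 each), with a log2 difference of -0.79 (SE 0.20, interval -1.23 to -0.36, limma adjusted p = 0.0934).

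For ERBB2 and ERBB3 alike, library 4 was the highest of its group among both cyclic and pregnant libraries. The same libraries were highest for the epithelial keratin KRT8 (251 RPKM in cyclic library 4 and 134 RPKM in pregnant library 4) and for its partner KRT18 (235 and 128 RPKM). The secretory glycoprotein OVGP1 and, among ciliated cell markers, FOXJ1 and TPPP3 were also highest in both libraries 4, and the ciliary gene CCDC39 was lowest there. Log2 differences in the secretory list were -1.61 for OVGP1 and 0.02 for PAX8. Its general epithelial genes had -0.73 (KRT8), -0.44 (KRT18) and -0.14 (EPCAM). Those of the ciliated cell markers were -0.83 for FOXJ1, -0.61 for DNAI2, -0.56 for TPPP3, -0.53 for DNAI1, whose groups did not overlap, -0.16 for CAPS and 0.96 for CCDC39. Of the 5 tested fibroblast markers, FBLN1 had -1.48, COL1A2 -0.80, COL3A1 -0.41, DCN -0.27 and LUM 0.15. None of these markers passed the test, and the part of the secretory, ciliated and fibroblast markers in the receptor difference was not tested. Without both libraries 4, the log2 differences were -0.78 for ERBB2 and -0.52 for ERBB3, and each passed (limma-trend adjusted p = 0.0352 and 0.0326), beside 4.14% of all tested features. Leaving out both libraries 4 was chosen after seeing the data, so these 2 calls are no independent evidence. Without cyclic library 3 both passed as well (adjusted p = 0.0319 for ERBB2 and 0.0332 for ERBB3), with 17.2% of features. With each library left out in turn, the limma-trend adjusted p ran up to 0.194 for ERBB2 and for ERBB3. In the fit that gave 0.194, that was the smallest adjusted p of any feature. Library weights estimated from the data gave a call for both (adjusted p = 0.00323 and 0.00391) and for 37.6% of features.

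EGFR, the receptor shared by all 6 named ligands, was far lower in level. It stood at 8.56, 7.37, 7.34, 7.49 and 5.92 RPKM in cyclic libraries 1 to 5 and at 6.76, 6.33, 5.27, 5.91 and 6.27 RPKM in pregnant libraries 1 to 5. Cyclic library 5 lay within the pregnant range and the other 4 cyclic libraries above it. The means were 7.34 ± 0.936 and 6.11 ± 0.555 RPKM (SD, n = 5 each), and the log2 difference was -0.23 (interval -0.48 to 0.03, limma adjusted p = 0.234). EGFR was the receptor with the least spread, with a coefficient of variation of 12.8% in cyclic and 9.08% in pregnant libraries.

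ERBB4, which binds both neuregulins and part of the EGF ligands, was the receptor of lowest level. Cyclic libraries 1 to 5 held 3.63, 1.89, 2.73, 1.24 and 0.974 RPKM, and pregnant libraries 1 to 5 held 1.25, 2.43, 1.94, 1.54 and 2.48 RPKM. All pregnant libraries lay inside the cyclic range. The log2 difference was -0.03 with an interval of -0.55 to 0.50 (limma adjusted p = 0.955), and it was 0.14 without cyclic library 1. Its coefficient of variation was 52.3% in cyclic and 28.1% in pregnant libraries. Reads per library ran from 40 to 216.

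**Figure D1:**
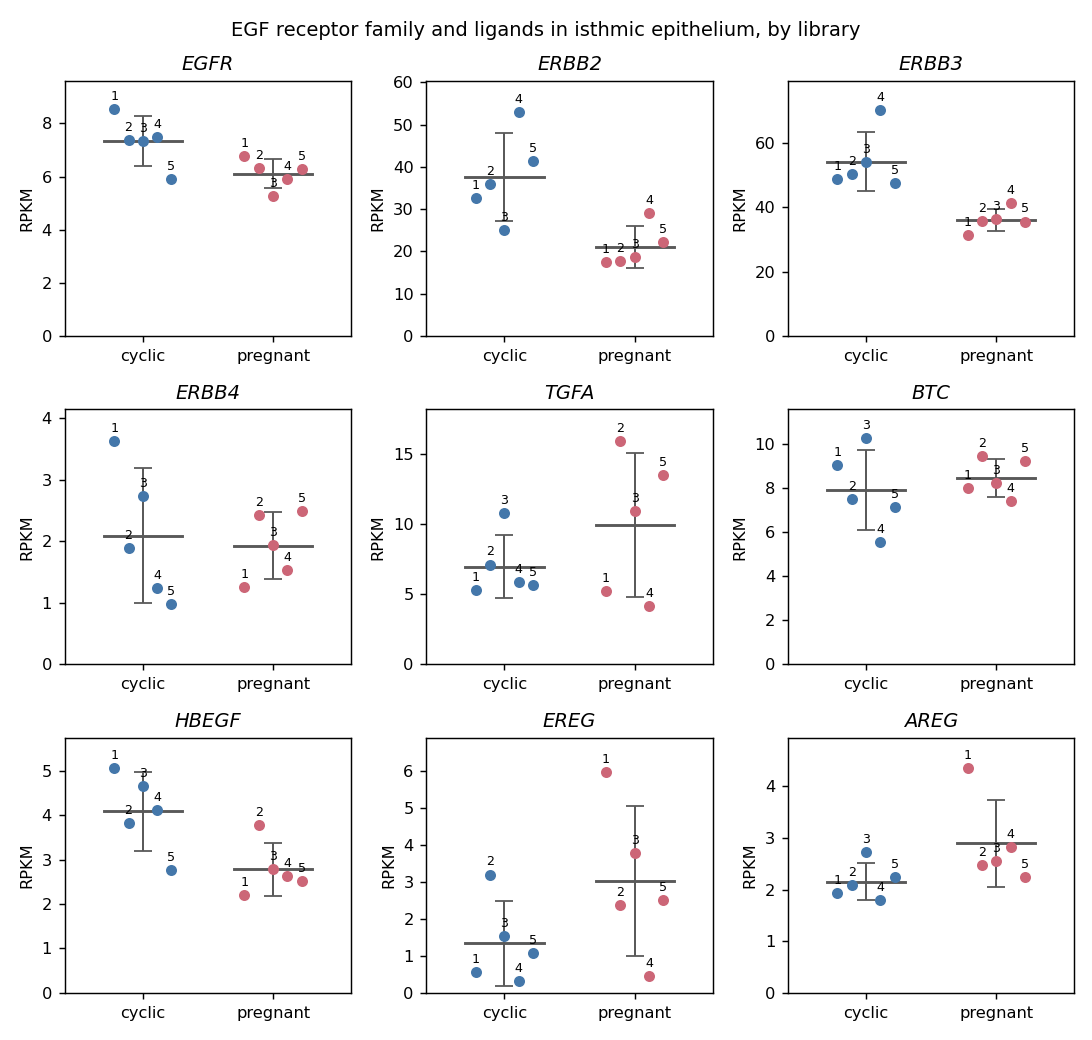
RPKM (y axis, from 0, own scale per panel) of the 4 receptors and 5 ligands in each library. Points are libraries with their number, the horizontal bar is the group mean and the error bar 1 SD (n = 5). The cyclic and pregnant points are separate for ERBB3 and touch only through cyclic library 3 and pregnant library 4 for ERBB2. For EGFR and HBEGF only cyclic library 5 lies among the pregnant points, and in the other panels the points are mixed.

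The order of the receptors was the same in all 10 libraries: ERBB3, then ERBB2, EGFR and ERBB4. ERBB2 and ERBB3 together accounted for 90.4% ± 2.71 of the summed receptor RPKM in cyclic and 87.5% ± 1.94 in pregnant libraries (SD, n = 5 each). The summed receptor level ran from 89.1 to 132 RPKM in cyclic and from 56.7 to 77.8 RPKM in pregnant libraries. The ratio of ERBB2 to ERBB3 was 0.695 ± 0.149 in cyclic and 0.578 ± 0.0871 in pregnant libraries, with overlapping ranges (0.464 to 0.871 and 0.492 to 0.707). ERBB3 exceeded EGFR 7.46 ± 1.37 times in cyclic and 5.97 ± 0.987 times in pregnant libraries, also with overlap. Among tested features, mean RPKM placed ERBB3 at the 87.9th percentile, ERBB2 at the 78.3rd, EGFR at the 32.7th and ERBB4 at the 8.70th.

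TGFA, a ligand of EGFR, stood at 5.34, 7.12, 10.8, 5.90 and 5.66 RPKM in cyclic libraries 1 to 5. In pregnant libraries 1 to 5 it stood at 5.20, 15.9, 10.96, 4.17 and 13.5 RPKM. Pregnant libraries 2, 3 and 5 lay above every cyclic library and libraries 1 and 4 below every one, in part by narrow margins. Pregnant library 3 (10.96 RPKM, 91 reads) was barely above cyclic library 3 (10.8 RPKM, 97 reads). Pregnant library 1 (5.20 RPKM) was barely below cyclic library 1 (5.34 RPKM), with 44 reads in each. The means were 6.96 ± 2.25 and 9.95 ± 5.12 RPKM (SD, n = 5 each), and the log2 difference was 0.35 with a wide interval of -0.36 to 1.06 (limma adjusted p = 0.499). The gene length recovered from the values was 489 bases, shorter than that of all but 2.32% of the features with a recovered length (median 1912 bases). Between 28 and 172 reads lay behind each value, and how far so short a model covers the transcript is not known.

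BTC, betacellulin, a ligand of EGFR and ERBB4, had a recovered length of 3256 bases, so its RPKM cannot be set beside that of TGFA without that reservation. Cyclic libraries 1 to 5 held 9.05, 7.52, 10.3, 5.54 and 7.13 RPKM, and pregnant libraries 1 to 5 held 7.99, 9.45, 8.21, 7.43 and 9.25 RPKM. All pregnant values lay inside the cyclic range. The log2 difference was 0.11 (interval -0.22 to 0.44, limma adjusted p = 0.667). Its coefficient of variation was 23.1% in cyclic and 10.1% in pregnant libraries.

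HBEGF, the heparin-binding ligand of EGFR and ERBB4, stood at 5.07, 3.83, 4.65, 4.12 and 2.76 RPKM in cyclic libraries 1 to 5. The pregnant libraries held 2.20, 3.77, 2.79, 2.62 and 2.51 RPKM. Cyclic library 5 lay among the pregnant values, and the other 4 cyclic libraries lay above all pregnant ones, pregnant library 2 being the closest. The means were 4.08 ± 0.884 and 2.78 ± 0.593 RPKM (SD, n = 5 each), with a log2 difference of -0.42 (SE 0.16, interval -0.78 to -0.07, limma adjusted p = 0.131). HBEGF made up 18.5% ± 4.29 of the summed ligand RPKM in cyclic and 10.6% ± 2.69 in pregnant libraries.

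EREG, epiregulin, a ligand of EGFR and ERBB4, was the member with the widest spread. It stood at 0.557, 3.20, 1.53, 0.322 and 1.08 RPKM in cyclic libraries 1 to 5, from 6, 37, 18, 2 and 13 reads. The pregnant libraries held 5.97, 2.38, 3.78, 0.456 and 2.52 RPKM, from 66, 33, 41, 5 and 42 reads. Within a group the highest library was 9.93 times the lowest in cyclic and 13.1 times in pregnant heifers, and library 4 was the lowest in both groups. The exact Poisson 95% interval, which covers counting error only, was 0.0391 to 1.16 RPKM in cyclic library 4 and 0.148 to 1.06 RPKM in pregnant library 4, below the 4.62 to 7.60 RPKM of pregnant library 1. The means were 1.34 ± 1.14 and 3.02 ± 2.03 RPKM (SD, n = 5 each), and the log2 difference of 0.73 had an interval of -0.16 to 1.62 (limma adjusted p = 0.258). Without pregnant library 1 it was 0.49, without pregnant library 4 it was 1.06, and with a pseudocount of 0.1 it was 1.12. The recovered length of EREG, 639 bases, was also short, above that of 5.01% of features.

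AREG, amphiregulin, a ligand of EGFR, stood at 1.93, 2.08, 2.72, 1.79 and 2.24 RPKM in cyclic libraries 1 to 5. The pregnant libraries held 4.36, 2.47, 2.56, 2.83 and 2.25 RPKM. Pregnant libraries 1 and 4 lay above the cyclic range and the other 3 inside it. The log2 difference was 0.29 (interval -0.06 to 0.64, limma adjusted p = 0.255), and 0.17 without pregnant library 1, the only one above 3 RPKM.

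Levels of the ligands followed no single order across libraries. TGFA or BTC was the highest of the 5 in all 10 libraries. EREG was the lowest of the 5 in 4 cyclic libraries but in only 2 pregnant ones. In order of mean level among all 9 genes, BTC, EGFR and TGFA were neighbours in cyclic libraries with overlapping ranges (7.90, 7.34 and 6.96 RPKM), as were AREG, ERBB4 and EREG (2.15, 2.09 and 1.34 RPKM). In the cyclic group the range of HBEGF (2.76 to 5.07 RPKM) did not overlap those of its neighbours, but by narrow margins. The highest AREG value was 2.72 RPKM and the lowest TGFA value 5.34 RPKM. In pregnant libraries the ranges of TGFA and BTC overlapped, as did those of each neighbouring pair from EGFR down through EREG, AREG, HBEGF and ERBB4. The summed ligand level was 22.4 ± 4.86 RPKM in cyclic and 27.1 ± 6.15 RPKM in pregnant libraries (SD, n = 5 each). It was lowest in library 4 of each group, at 17.7 and 17.5 RPKM, where the summed receptor level was the highest of each group. RPKM divides by the length of the gene model used, and reads outside that model are not in the values, so levels of different genes are comparable only as far as the models are complete. The short models of TGFA and EREG make their places in the order, and their shares of the ligand sum, the least certain.

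**Figure D2:**
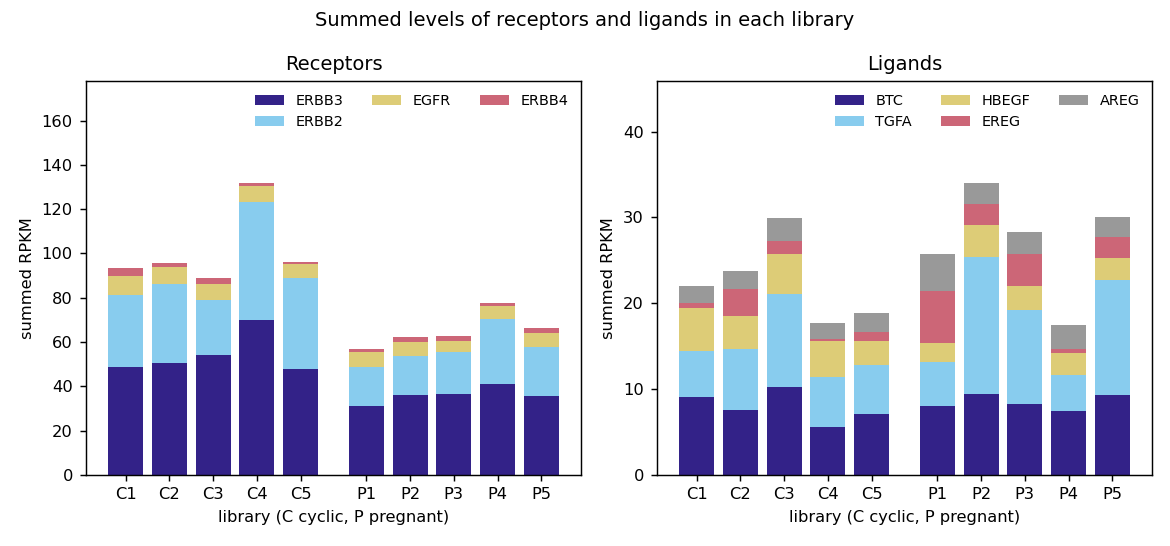
RPKM of the 4 receptors (left) and 5 ligands (right), stacked for each library (x axis; C cyclic, P pregnant). ERBB3 and ERBB2 fill most of every receptor bar, and all 5 pregnant receptor bars (56.7 to 77.8 RPKM) are shorter than all 5 cyclic ones (89.1 to 132 RPKM), while ligand bars overlap between the groups.

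In the reference gene order (ARS-UCD2.0) EPGN, EREG, AREG and BTC are direct neighbours on chromosome 6. EPGN, epigen, another ligand of EGFR, stood at 2.10, 2.23, 3.02, 0.26 and 1.61 RPKM in cyclic libraries 1 to 5 and at 2.19, 2.44, 1.49, 0.589 and 1.65 RPKM in pregnant libraries 1 to 5. EPGN, EREG and BTC each had their lowest value of both groups in library 4. For AREG, the fourth of these neighbours, that held among cyclic libraries but not among pregnant ones, where library 4 was its second highest. EPGN rested on 1 to 22 reads per library, and its log2 difference was -0.04 (interval -0.71 to 0.63). The neuregulins NRG1 and NRG2, ligands of ERBB3 and ERBB4, had log2 differences of 0.11 and -0.13 (limma adjusted p = 0.786 and 0.845). NRG2 ranged from 0.811 to 5.39 RPKM in cyclic and from 0.818 to 4.11 RPKM in pregnant libraries, lowest in library 1 of both groups.

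The features whose log2(RPKM + 1) over the 10 libraries was most like that of each member were taken by Pearson r, a description that includes the difference between groups and any effect of depth. TTLL12, CEP250 and SPATA2 were the closest to ERBB2 (r = 0.99, 0.99 and 0.98). LIMK1, a kinase of actin regulation, the translation factor subunit EIF3F and ARMCX2 were the closest to ERBB3 (r = 0.98, 0.98 and 0.97). AK8, FGD1 and IR-A were the closest to EGFR (r = 0.93, 0.90 and 0.90), and GPC5, FOXN3 and ZEB1 to ERBB4 (r = 0.95, 0.95 and 0.94). For the ligands these were WFDC3, SMURF2 and LPGAT1 for TGFA (r = 0.96, 0.95 and 0.95) and RAD9B and RHOQ, among the closest 3, for BTC (r = 0.97 each). XG, LEPREL1 and TIEG2 were the closest to HBEGF (r = 0.93, 0.93 and 0.92), and CD55, SLC28A3 and RNF146B to EREG (r = 0.96, 0.95 and 0.95). MSANTD4, MYO5C and NDUFB6 were the closest to AREG (r = 0.95, 0.94 and 0.92).

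Other genes of the pathway were taken from 9 lists with 110 genes, of which 96 were tested. None passed across all features. Of the 39 pathway genes with the smallest p in their lists or fixed by name, 17 passed without cyclic library 3 and 26 with library weights. Those settings called 17.2% and 37.6% of all tested features. The 39 were in part picked by their p in these same data, so their counts are no evidence about the pathway. At an unadjusted p under 0.05 there were 14 higher and 15 lower, beside 15.7% and 11.9% of all tested features, and the median log2 difference was -0.09. The same shares of all tested features stand beside the counts of each list below.

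Among 9 tested genes that release ligands or govern that release, 2 were higher and 1 lower at an unadjusted p under 0.05 (median -0.14). ADAM10, the main protease for BTC and EGF, averaged 28.2 ± 7.19 RPKM in the cyclic group and 40.6 ± 10.3 RPKM in the pregnant group (± SD, 5 libraries per group; log2 difference 0.51, limma adjusted p = 0.152). ADAM17, which releases TGFA, AREG, HBEGF and EREG, averaged 9.09 ± 1.16 and 8.19 ± 1.19 RPKM (log2 difference -0.14, interval -0.42 to 0.15). TIMP3, an inhibitor of ADAM17, averaged 7.01 ± 4.502 and 3.21 ± 1.56 RPKM, a log2 difference of -0.86 that was -0.58 without cyclic library 4, where it stood at 14.7 RPKM. ADAM12 differed by 0.43 and RHBDF1, which helps ADAM17 mature, by -0.27.

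Adaptors that dock on the active receptors had a median of 0.24 (9 tested, 1 higher at an unadjusted p under 0.05). That gene was NCK1, at 22.4 ± 3.73 RPKM in the cyclic group and 31.7 ± 3.12 RPKM in the pregnant group (± SD, 5 libraries per group). Its groups did not overlap, as for 4.91% of features in that direction (log2 difference 0.50, limma adjusted p = 0.0934). CRK, SHC1 and PTPN11 differed by 0.24, -0.27 and 0.21.

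Genes of the RAS-ERK cascade lay in both directions (13 tested, 2 higher and 2 lower at an unadjusted p under 0.05, median -0.09). NRAS, a RAS gene, averaged 13.5 ± 2.67 RPKM in the cyclic group and 17.5 ± 1.58 RPKM in the pregnant group (± SD, 5 libraries per group; log2 difference 0.36, limma adjusted p = 0.120). Cyclic library 3 held 18.3 RPKM of it and the remaining cyclic libraries 11.9 to 12.9 RPKM, so the ranges overlapped only through that library.

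The PI3K-AKT branch had a median of 0.07 (11 tested, 2 higher and 1 lower at an unadjusted p under 0.05). PIK3CA, the catalytic subunit, averaged 6.43 ± 2.96 RPKM in the cyclic group and 12.2 ± 2.73 RPKM in the pregnant group (± SD, 5 libraries per group; log2 difference 0.90, limma adjusted p = 0.101). The regulatory subunit PIK3R2 differed by -0.67 (limma adjusted p = 0.0969) and AKT1 by -0.36.

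Inhibitors and degradation factors of the receptors had a median of 0.14 (18 tested, 4 higher and 1 lower at an unadjusted p under 0.05). The lower one, SOCS3, an inhibitor mainly of cytokine receptors, averaged 2.39 ± 1.01 RPKM in the cyclic group and 0.439 ± 0.208 RPKM in the pregnant group (± SD, 5 libraries per group; log2 difference -1.20, limma adjusted p = 0.0934). It rested on 3 to 9 reads in each pregnant library, and its log2 difference was -2.22 with a pseudocount of 0.1 and -2.39 with voom on recovered reads. USP8, which removes ubiquitin from EGFR on endosomes, averaged 16.3 ± 5.55 and 28.6 ± 1.99 RPKM with no overlap (0.86, limma adjusted p = 0.0955). The phosphatase PTPN12 and SOCS5, which promotes EGFR breakdown, differed by 0.48 and 0.30. ERRFI1, an inhibitor of the EGFR kinase, averaged 7.90 ± 1.62 and 6.84 ± 0.772 RPKM (log2 difference -0.17, interval -0.48 to 0.14). LRIG1, a membrane protein that lowers the receptors, was abundant at 87.4 ± 20.7 and 81.4 ± 17.2 RPKM (-0.10, interval -0.52 to 0.33).

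Feedback inhibitors of ERK had a median of -0.02 (10 tested, 1 higher and 1 lower at an unadjusted p under 0.05). DUSP6, a phosphatase of ERK that ERK signalling induces, averaged 14.8 ± 3.63 RPKM in the cyclic group and 14.3 ± 2.34 RPKM in the pregnant group (± SD, 5 libraries per group; log2 difference -0.03, interval -0.42 to 0.37). RASA1, which switches off RAS, differed by 0.50, DUSP7 by -0.35, SPRY4 by -0.84 and DUSP5 by 0.35.

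Genes induced at once by growth factors and by many other stimuli were all lower in pregnant heifers among the 12 tested of 18. Of these, 8 had an unadjusted p under 0.05, and the median was -0.67. Over all tested features, 6299 of 12834 were lower, and 11.9% were lower at that threshold. The list was known from earlier results of these data, so its lower values are no independent evidence of its direction. KLF10, listed in the table as TIEG1, averaged 11.1 ± 0.891 RPKM in the cyclic group and 6.04 ± 1.94 RPKM in the pregnant group without overlap (± SD, 5 libraries per group; log2 difference -0.83, limma adjusted p = 0.0934). JUNB averaged 7.32 ± 2.997 and 3.39 ± 0.800 RPKM, also without overlap (-0.87, limma adjusted p = 0.0934). MYC averaged 5.84 ± 1.52 and 2.61 ± 1.72 RPKM; pregnant library 4 (5.66 RPKM) lay inside the cyclic range (-0.997, limma adjusted p = 0.0934). IER3 differed by -0.71.

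Proteins that associate with the receptors at the membrane had a median of -0.19 (11 tested, 2 higher and 1 lower at an unadjusted p under 0.05). The membrane mucin MUC1, which binds ErbB receptors, had a log2 difference of -1.78 (limma adjusted p = 0.0934). CAV1 of caveolae averaged 37.2 ± 15.8 RPKM in the cyclic group and 62.5 ± 13.9 RPKM in the pregnant group (± SD, 5 libraries per group; 0.79, limma adjusted p = 0.103). The receptor kinase MET differed by 0.47 and the tetraspanin CD9 by -0.30.

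**Figure D3:**
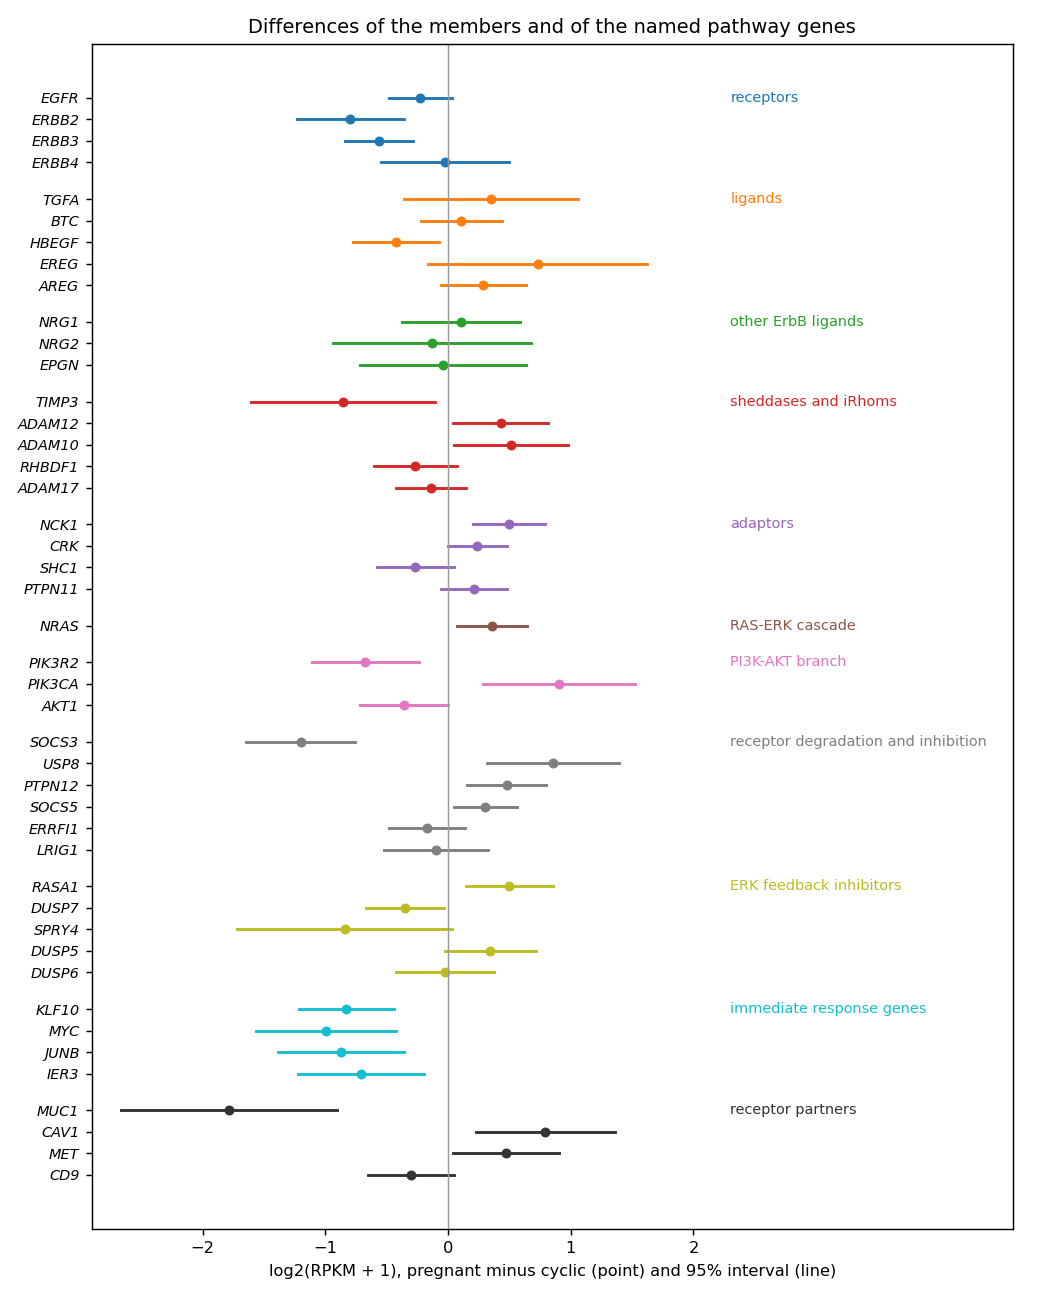
Log2 difference, pregnant minus cyclic on the log2(RPKM + 1) scale (x axis), with its 95% interval from limma, for the 9 members and pathway genes by list. The intervals of ERBB2 (-1.23 to -0.36) and ERBB3 (-0.84 to -0.29) lie below 0, while EGFR, ERBB4 and all ligands but HBEGF include 0; no gene shown passed an adjusted p of 0.05.

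**Figure D4:**
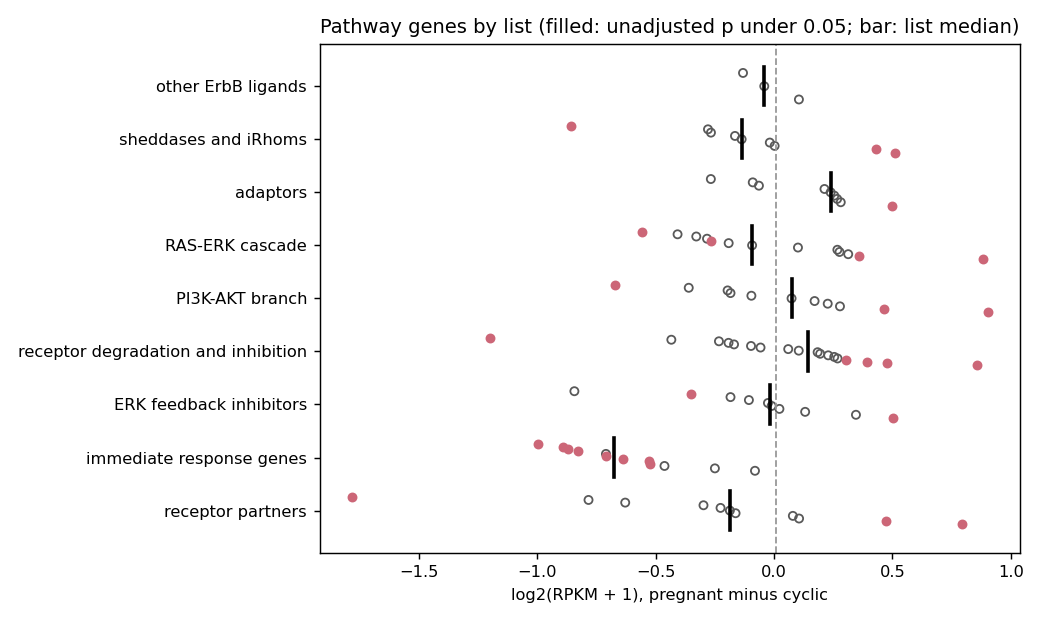
Log2 difference, pregnant minus cyclic (x axis), of each of the 96 tested pathway genes by list (y axis). Filled points have an unadjusted p under 0.05, black bars are list medians and the dashed line is the median of all tested features (0.01); the immediate response genes lie below 0 throughout (median -0.67), and the other lists spread to both sides.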

How the data were processed

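RNA was isolated with Trizol, and poly(A)-selected, strand-specific libraries were amplified by PCR, per the labels' protocols. No aligner, counter, build or annotation is named in the sources used here. The header calls the values only expression. That the authors deposited RPKM values was read from their behaviour: at some library totals, 8 mitochondrial genes of annotated length gave whole reads (tolerance 0.02 reads plus rounding). The smallest such totals, 3 to 7 close together per library, were taken by their median. Gene lengths up to 12000 bases that gave whole reads in all libraries were found for 12791 of 12834 tested features, against 0.6% of 500 features with jittered values. Recovered totals ran from 9.71 M to 26.1 M reads.

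Groups were compared with limma-trend (limma 3.58.1, R 4.3.3) on log2(RPKM + 1). Features needed a mean of 1 RPKM over the 10 libraries. Group was the only term, and p-values were adjusted over all tested features (Benjamini-Hochberg, threshold 0.05). Fold changes on that scale understate those of low genes. The fit was run on simulated data whose spread was drawn independently for each feature. That cannot show how the fit behaves where many features of a library deviate together. Members and lists were chosen with earlier results of these data known. Named pathway genes were, in each list, up to 4 tested members of smallest p, plus ADAM10, ADAM17, ERRFI1, DUSP6, NRG1 and LRIG1. The 3 features most like each member were taken by Pearson r. A few genes that these rules picked are not reported here. Lists are described by counts and medians without a test. Intervals of reads cover counting error only. Alternatives were another pseudocount, other filters, scalings, library weights, a replicate block, voom on recovered reads, an adjusted p of 0.1 and libraries left out. Figures used Python 3.11.15 and matplotlib 3.10.9.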

Additional observations from a re-analysis of the deposited data

Results flagged for a closer look

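In 6 of 96 groups of 5 libraries, 1 library stood apart: its distance to the closest other library was over 0.71 of the distance between lowest and highest. Chance marks about 1 group in 20. ERBB3 in cyclic library 4 stood at 70.1 RPKM, where the remaining cyclic libraries held 47.6 to 54.0 RPKM. AREG was at 4.36 RPKM in pregnant library 1, beside 2.25 to 2.83 RPKM. NRAS was at 18.3 RPKM in cyclic library 3, beside 11.9 to 12.9 RPKM. USP8 was at 6.61 RPKM in cyclic library 4, beside 16.9 to 19.7 RPKM. In pregnant library 4, PIK3CA was at 7.38 RPKM, beside 12.7 to 13.7 RPKM, and MYC at 5.66 RPKM, beside 1.44 to 2.07 RPKM.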

How the results depend on the processing

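The number of features called, 0 of 12834 (3534 at an unadjusted p under 0.05, and 0 with voom on recovered reads), was 4831 with library weights, 1018 at an adjusted p of 0.1 and 531 without both libraries 4, a setting chosen after seeing the data. It ran from 0 to 2213 with each library left out, being 2213 without cyclic library 3 and 56 without pregnant library 4. ERBB2 and ERBB3 passed with library weights (log2 differences -0.90 and -0.49) and at an adjusted p of 0.1 (-0.79 and -0.56). They passed without cyclic library 3, but with another library left out their limma-trend adjusted p reached 0.194, the smallest of any feature in that fit. They also passed without both libraries 4 (-0.78 and -0.52), and the cause was not tested. With each library left out, ERBB2 ran from -0.93 to -0.66, ERBB3 from -0.61 to -0.47, EGFR from -0.29 to -0.17, HBEGF from -0.53 to -0.35, EREG from 0.49 to 1.06, AREG from 0.17 to 0.35, TGFA from 0.16 to 0.58 and BTC from 0.0040 to 0.20. ERBB4 ran from -0.17 to 0.14 and was also positive with library weights (0.17) and with voom (0.0053). The other 8 members kept their sign under all settings run.

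Of the 39 pathway genes chosen for naming, in part by their p in these data, 26 passed with library weights and 17 without cyclic library 3. At an adjusted p of 0.1 there were 10, without both libraries 4 there were 8 and without pregnant library 4 there were 4. In the same order, these settings called 37.6%, 17.2%, 7.93%, 4.14% and 0.436% of all tested features. Under the other settings 0 of the 39 passed. NRG1 ran from -0.017 to 0.27 with each library left out, NRG2 from -0.39 to 0.090, EPGN from -0.31 to 0.13, LRIG1 from -0.22 to 0.022 and DUSP6 from -0.18 to 0.056. EPGN was also 0.035 with a pseudocount of 0.1, and LRIG1 0.012 with library weights. List medians ran from -0.18 to -0.026 for the genes of ligand release, 0.15 to 0.30 for adaptors, -0.17 to 0.060 for RAS-ERK and -0.050 to 0.16 for PI3K-AKT, which was -0.0036 without both libraries 4. They ran from 0.087 to 0.19 for receptor degradation and inhibition, -0.098 to 0.031 for ERK feedback inhibitors, -0.32 to -0.062 for receptor partners, -0.20 to 0.12 for the other ErbB ligands and -0.83 to -0.59 for immediate response genes.

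The correlation of same-numbered deviations was -0.03, -0.27, -0.01, 0.28 and -0.34 for numbers 1 to 5. Only for number 4 was the same-numbered pregnant library the best match of the cyclic one. The labels give no pairing, and these correlations cannot exclude it. With the replicate block 0 features were called, and ERBB2 and ERBB3 had limma adjusted p = 0.0620 and 0.0697. Upper-quartile scaling moved the median of all features by -0.08 and took the share of higher features, among those with an unadjusted p under 0.05, from 56.8% to 37.3%. Depth limits EREG and EPGN most, with as few as 2 and 1 reads in cyclic library 4.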
